A study of Mus musculus with 2 samples.

Results

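The genes described here build the contacts between epithelial cells and the filaments tied to them: keratins, desmosome proteins, claudins and other tight junction proteins, and connexins. They were chosen by name, as probe sets with 1 platform gene symbol starting with Krt and a digit, Dsg, Dsc and a digit, Pkp, Cldn, Tjp, Gja, Gjb or Gjc, or equal to Dsp, Jup, Perp, Ocln or F11r. The rule took 154 probe sets of 102 genes, among 18194 genes with a probe set, and each gene took the value of the probe set with the highest mean over both arrays. The genes fall into 48 keratins (25 of type I and 23 of type II), 13 desmosome genes, 24 claudins, 2 claudin domain genes, 4 other tight junction genes and 11 connexins. The rule uses names alone to choose the genes.

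RNA came from mouse cells labelled as lymphoma. One array carried cells grown in medium with serum, and the other carried cells grown together with endothelial cells, which line blood vessels. The labels name neither the lymphoma line, the source of the endothelial cells, the duration, nor any separation of the cell types before RNA was taken, and the co-culture label names no medium. With 1 array per culture there is no test between them, no p-value and no measure of the spread between cultures, and the number of arrays limits the precision. In mixed cells, fewer cells of a type and less RNA per cell cannot be told apart.

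Keratins are the intermediate filaments of epithelia, and a filament forms only when a type I keratin pairs with a type II keratin. Desmosomes anchor these filaments: the cadherins Dsg and Dsc bridge the cells, plakoglobin (Jup) and plakophilins (Pkp) bind their tails, and desmoplakin (Dsp) ties the plaque to the filaments. Tight junctions seal the space between cells through claudins and occludin (Ocln) on zonula occludens scaffolds (Tjp), and connexins assemble channels that let small molecules pass between neighbouring cells. Lymphocytes are not held together by desmosomes or tight junctions.

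Both arrays held 45101 probe sets, and values below the floor, the pooled median intensity of 44.3, were set to it before log2 values were taken. The brightest of 27 probe sets for bacterial control genes reached 21.6 in serum culture and 21.7 in co-culture. A gene is called measured when 1 or both arrays put it above the floor. It is called higher or lower in co-culture when the cultures differed by 1 or more on the log2 scale, which is 2-fold. A fold against a value below the floor is a lower bound, written as at least that fold. The 3′ to 5′ intensity ratio, which reflects RNA quality, was lower in co-culture for each control. It was 3.56 in serum culture and 2.05 in co-culture for beta-actin, 2.54 and 1.88 for Gapdh, and 13.2 and 5.03 for Tfrc. Its part in the differences below was not tested.

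The defining markers of the labelled cell type were mostly below the floor. Of 11 leukocyte and B cell markers with a probe set, 10 lay below the floor on both arrays, among them Ptprc, Cd79a, Cd79b, Ms4a1 and Pax5, and the list summed to an intensity of 225 in serum culture and 257 in co-culture. Of 12 endothelial markers 10 were below the floor on both, Pecam1, Cdh5, Kdr and Tek among them, with sums of 685 and 855. Most of these sums came from 1 gene, Egfl7, with 473 and 532. Of 12 simple epithelial markers 8 were below the floor, with sums of 667 and 669, and of 10 fibroblast and mesenchymal markers 5 were, with sums of 385 and 464. The 4 measured epithelial markers were Esrp1 (305 and 217), Elf3 (173 and 85), Epcam (59.6 and 128) and Grhl2 (42.2 and 66.4). All the sums include values below the floor, so they do not measure the content of a cell type. The part that any of these cell types plays in the differences was not tested.

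Most keratin and junction genes were not measured, and few of the measured ones differed by 2-fold. Of the 102 genes, 30 (29.4%) were measured, against 63.4% of all genes. An intensity of 200 on an array was reached by 16 (15.7%), against 46.5% of all genes. In co-culture Dsp, F11r and Gja3 were higher and the hair follicle keratin Krt75 was lower, while 26 lay within 2-fold. Of all 11543 measured genes 4.6% were higher and 10.1% were lower, 14.7% in either direction. The 3 higher genes were 10% of the 30 and the 1 lower gene 3.33%, counts of a few genes that have no test. Of the 30, 7 lay above the floor in co-culture alone and 4 in serum culture alone, which fixes the sign of their differences. The whole array leaned the same way: 1065 of 11543 measured genes were above the floor in co-culture alone and 577 in serum culture alone. The 19 genes above the floor in both cultures had a median log2 difference of 0.13, with 11 above 0. The 9901 such genes of the array had a median of -0.10, with 4236 above 0. All 3 higher genes belonged to junctions, and the lower one was a keratin.

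**Figure D1:**
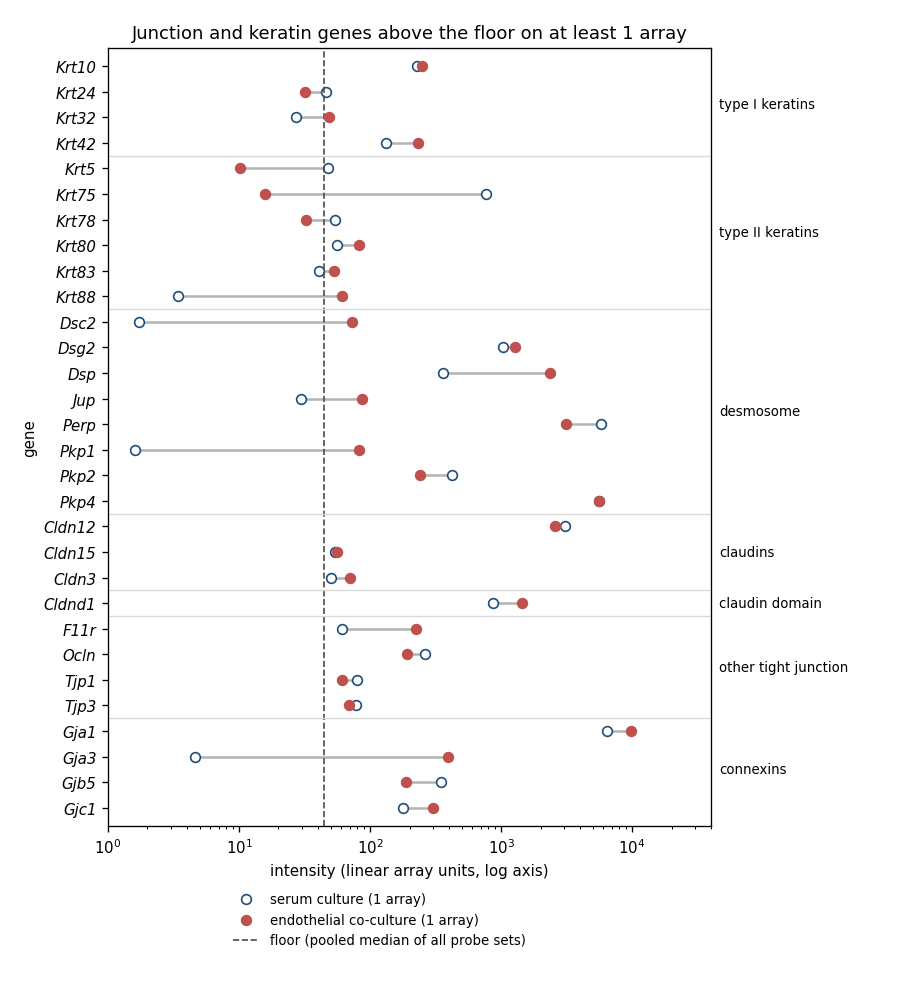
Intensity on the serum array (open points) and the co-culture array (filled points) of the 30 measured genes, on a log axis, with the floor of 44.3 as a dashed line and 1 array per culture. The serum and co-culture points lie far apart for Krt75, Dsp and Gja3, and the wide gaps of Dsc2, Pkp1 and Krt88 run from far below the floor to under 100 intensity units.

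**Figure D2:**
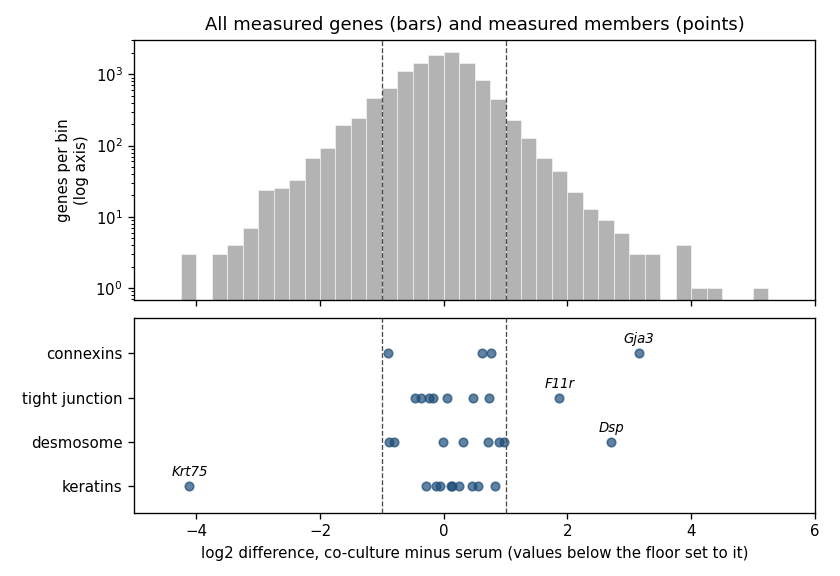
Log2 differences of all 11543 measured genes in bins (bars, log axis) and of the 30 measured keratin and junction genes (points), with 2-fold as dashed lines. Dsp, Gja3 and F11r lie to the right of the lines, Krt75 lies to the left, and the other 26 lie between them.

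Desmoplakin showed the clearest difference. Dsp read 363 in serum culture and 2378 in co-culture, 6.55-fold higher, so it was well above the floor in both cultures. A second probe set gave 248 and 2346, a log2 difference of 3.24 beside 2.71 for the first, and the remaining one lay below the floor on both arrays. Among the 9901 genes above the floor on both arrays, 10 had a larger increase.

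The connexin Gja3, best known from the fibre cells of the eye lens, was far below the floor in the serum culture and bright in co-culture. Its brighter probe set read 4.63 in serum culture and 396 in co-culture, at least 8.94-fold higher. The other Gja3 probe set lay below the floor on both arrays, with 6.39 and 6.49, so the difference rests on 1 probe set. F11r, the junctional adhesion molecule JAM-A, had 61.3 and 224, 3.65-fold higher, and 52 of the 9901 genes above the floor on both arrays had a larger increase. Its other probe set, at 11.8 and 28.9, was below the floor on both. Averaged over both probe sets, the log2 difference of F11r was 0.93, under 2-fold. The other probe set enters this mean as 0, because both its values were set to the floor. The smaller value was therefore built in and does not bear on the call.

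Krt75, a type II keratin of the companion layer of the hair follicle, went the other way. It had 765 in serum culture and 15.8 in co-culture, at least 17.3-fold lower. It has a single probe set on the array, so no other reading of the gene is at hand.

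The start-site sequences of these 4 genes are shown because they are the ones past 2-fold. Each is a RefSeq window of the GRCm38.p6 build, from 250 bases before to 50 bases after an annotated start, and the deposited values themselves carry no genome build. Capitals mark matches, on either strand, to the letters TATAAA (the TATA box), GGGCGG (the GC box bound by SP factors), CAGGTG (an E-box bound by SNAI and ZEB repressors), TGACTCA (the AP-1 site) and GCGTG (the core of the aryl hydrocarbon receptor site). In these windows no match overlapped another.
Dsp, chr13:38151044-38151343, plus strand: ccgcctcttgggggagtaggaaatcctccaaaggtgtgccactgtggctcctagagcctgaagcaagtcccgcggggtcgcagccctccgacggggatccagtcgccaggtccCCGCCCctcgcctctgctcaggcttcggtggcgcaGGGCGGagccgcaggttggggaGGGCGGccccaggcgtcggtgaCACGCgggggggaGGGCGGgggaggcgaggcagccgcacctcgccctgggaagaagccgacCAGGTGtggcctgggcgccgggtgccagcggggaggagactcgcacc
F11r, chr1:171437311-171437610, plus strand: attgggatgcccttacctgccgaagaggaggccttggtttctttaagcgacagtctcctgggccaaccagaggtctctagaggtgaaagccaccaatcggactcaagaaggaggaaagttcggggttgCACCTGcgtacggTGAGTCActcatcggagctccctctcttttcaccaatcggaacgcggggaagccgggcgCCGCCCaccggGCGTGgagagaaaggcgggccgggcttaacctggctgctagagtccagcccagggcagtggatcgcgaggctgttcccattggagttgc
Gja3, upstream window, chr14:57057981-57058280, minus strand: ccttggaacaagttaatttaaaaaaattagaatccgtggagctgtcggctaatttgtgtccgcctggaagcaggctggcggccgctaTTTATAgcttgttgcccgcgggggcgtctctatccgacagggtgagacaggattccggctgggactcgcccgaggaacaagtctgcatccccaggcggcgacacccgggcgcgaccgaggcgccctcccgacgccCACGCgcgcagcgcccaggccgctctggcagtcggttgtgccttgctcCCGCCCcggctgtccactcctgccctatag
Gja3, downstream window, chr14:57057674-57057973, minus strand: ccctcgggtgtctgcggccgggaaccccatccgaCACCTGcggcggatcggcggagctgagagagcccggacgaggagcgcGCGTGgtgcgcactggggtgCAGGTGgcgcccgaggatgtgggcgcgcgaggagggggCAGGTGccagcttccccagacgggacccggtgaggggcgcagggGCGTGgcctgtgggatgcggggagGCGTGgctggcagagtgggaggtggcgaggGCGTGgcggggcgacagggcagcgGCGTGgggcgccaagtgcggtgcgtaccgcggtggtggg
Krt75, chr15:101573855-101574154, minus strand: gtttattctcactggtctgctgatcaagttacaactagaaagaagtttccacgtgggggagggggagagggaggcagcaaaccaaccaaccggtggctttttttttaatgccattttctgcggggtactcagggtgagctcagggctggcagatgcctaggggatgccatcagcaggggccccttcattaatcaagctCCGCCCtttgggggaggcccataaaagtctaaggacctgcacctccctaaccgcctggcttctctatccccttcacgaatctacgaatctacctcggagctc

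The windows of the 3 higher genes were richer in CpG than that of Krt75. The ratio of CpG observed to that expected from the base content was 0.69 for Dsp and 0.70 for F11r, 0.97 and 0.93 for the upstream and downstream windows of Gja3, and 0.37 for Krt75. Dsp held 4 GC boxes, 1 E-box and 1 aryl hydrocarbon receptor core. F11r held 1 GC box, 1 E-box, 1 AP-1 site and 1 receptor core. The upstream window of Gja3 held 1 TATA box, 1 GC box and 1 receptor core, its downstream window held 3 E-boxes and 5 receptor cores, and Krt75 held 1 GC box. Of all 32851 windows 35.7% held a GC box, 32.4% a receptor core, 20.2% an E-box, 13.6% a TATA box and 5.20% an AP-1 site. A match is a description of the letters and shows no binding.

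Of the keratins, 38 of 48 were not measured, among them the pairs that mark most epithelia. Krt8 and Krt18, the pair of simple epithelia, had 1.31 and 10.5 in serum culture and 11.9 and 33 in co-culture. Krt7 and Krt19, also of simple epithelia, had 2.23 and 23.6 in serum culture and 20.1 and 31.4 in co-culture. Krt14, of the basal layer of the skin, had 2.59 and 41.2, and its partner Krt5 had 48.1 and 10.1. All of these but Krt5 on the serum array lay below the floor, where values have no order.

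Besides Krt75, 2 keratins reached an intensity of 200, both of type I. Krt10, a keratin of the differentiating epidermis, had 229 in serum culture and 250.3 in co-culture, while its usual partner Krt1 was below the floor at 17.6 and 18.3. Krt42, described in nail, had 132 and 234, a log2 difference of 0.82, and a second probe set gave 0.45. Their neighbours in the keratin gene cluster of the annotation were not measured: Krt28 and Krt12 beside Krt10, and Krt17 beside Krt42. The other measured keratins were Krt24 and Krt32 of type I and Krt5, Krt78, Krt80, Krt83 and Krt88 of type II, none above 100 intensity units, with log2 differences between -0.28 (Krt78) and 0.56 (Krt80).

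Of the desmosome genes 8 of 13 were measured, and Dsp alone was past 2-fold. The 5 above the floor in both cultures, Dsp, Dsg2, Pkp4, Pkp2 and Perp, lay on both sides of 0, with a median log2 difference of -0.0054, while Jup, Pkp1 and Dsc2 were measured in co-culture alone. Dsg2, the desmoglein found in all desmosome-bearing tissues, had 1028 in serum culture and 1276 in co-culture, a log2 difference of 0.31. Its 6 probe sets, all measured, ran from -0.70 to 1.75, so its direction depends on the probe set. The only negative difference came from a dim probe set at 92.8 and 57.0. Those at 5.66 and 43.6 in serum culture lay below the floor there, which fixed their sign. Pkp4, a plakophilin relative of adherens junctions and desmosomes, was bright and nearly equal at 5608 and 5588.

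Perp and Pkp2 were lower in co-culture without reaching 2-fold by their chosen probe sets. Perp, a membrane protein of desmosomes and a p53 target, had 5791 and 3152, a log2 difference of -0.88. Pkp2, the plakophilin of simple epithelia and heart, had 423 and 241, a log2 difference of -0.81. Its 2 other probe sets above the floor gave -1.01 and -1.10, so all 3 were lower.

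Several desmosome genes were below the floor on the serum array and just above it in co-culture. Jup had 29.5 and 87.5, at least 1.97-fold higher and next to the limit. Pkp1, of stratified epithelia, had 1.60 and 82.6, at least 1.87-fold higher. Dsc2, the desmocollin partner of Dsg2, had 1.73 and 72.6, at least 1.64-fold higher. A second Dsc2 probe set had 13.1 and 59.6 (0.43 on the log2 scale). It was also below the floor in serum culture, so its sign was fixed and adds no support. Of 6651 genes not measured on either array, 67.8% read higher on the co-culture array, with medians of 9.65 in serum culture and 16.5 in co-culture, and the part of this shift in the 3 differences was not tested. The other desmosome genes, Dsc1, Dsc3, Dsg1a, Dsg1b and Pkp3, were below the floor on both, Pkp3 with 29.1 and 36.8. The serum culture thus had Dsg2, Dsp, Perp, Pkp2 and Pkp4 above the floor, and the co-culture had these and Dsc2, Jup and Pkp1. Among all 11543 measured genes, 1065 were above the floor in co-culture alone and 577 in serum culture alone.

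Claudins were almost all below the floor: 3 of 24 were measured (12.5%). Cldn12, a broadly expressed claudin, had 3062 in serum culture and 2594 in co-culture, a log2 difference of -0.24, and its second probe set gave -0.12. Cldn3 and Cldn15 reached at most 70.4 and 55.7. Cldn5, the claudin that seals blood vessel endothelium, had 23.2 and 1.52, below the floor on both, so the co-culture array showed no measured level of it. The epithelial claudins Cldn1, Cldn4, Cldn6 and Cldn7 were also below the floor on both arrays.

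Cldnd1, which carries a claudin domain and matched by name, had 867 and 1449, a log2 difference of 0.74, and its 3 probe sets lay between 0.74 and 0.98. The remaining tight junction genes were all measured. Ocln had 261 and 190.3, a log2 difference of -0.46, with -0.16 by a second probe set. Tjp1, a zonula occludens scaffold, had 79.1 and 61.2, and Tjp3, another, had 78.1 and 69.7. F11r was thus the only one of the 8 measured tight junction genes past 2-fold.

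Connexins were measured in 4 of 11 cases, and each of the 4 reached an intensity of 200. Gja1, the most widely expressed connexin, was bright in both cultures at 6427 and 9824, a log2 difference of 0.61. All 6 of its probe sets were higher in co-culture, from 0.34 to 1.28, and the largest came from the dim probe set at 42.7 and 107.9. Gjc1, a connexin of heart and smooth muscle, had 177 and 299.8, a log2 difference of 0.76, with 0.56 by a second probe set. Gjb5, a connexin of skin and placenta, had 349 and 188, a log2 difference of -0.89 by its only probe set. Gja4 and Gja5, the connexins of arterial endothelium, were below the floor on both arrays, with 1.48 and 21.4 in serum culture and 3.42 and 20.003 in co-culture. Gjb2, the neighbour of Gja3 in the annotation, was at 2.86 and 4.48.

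Probe sets of the same gene give the one measure of error at hand. Over 12 of these genes with at least 2 probe sets above the floor the pooled SD of log2 differences was 0.44, and over 5480 such genes of the whole array it was 0.60. It covers differences between probe sets on the same 2 arrays, after the floor. It covers neither an error shared by a whole array nor the spread between cultures. In 11 of the 12 genes the probe sets above the floor lay on the same side of 0, with Dsg2 the exception. A probe set below the floor in serum culture could only give a positive difference. That holds for both Dsc2 probe sets, the second ones of Cldn3, Krt42 and Gjc1, and the dim one of Gja1. It also holds for the Dsg2 probe sets at 5.66 and 43.6 in serum culture. The agreement is therefore partly built in. Further probe sets of Dsp, Cldn3 and Pkp2 lay under the floor in both cultures and give no direction.

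**Figure D3:**
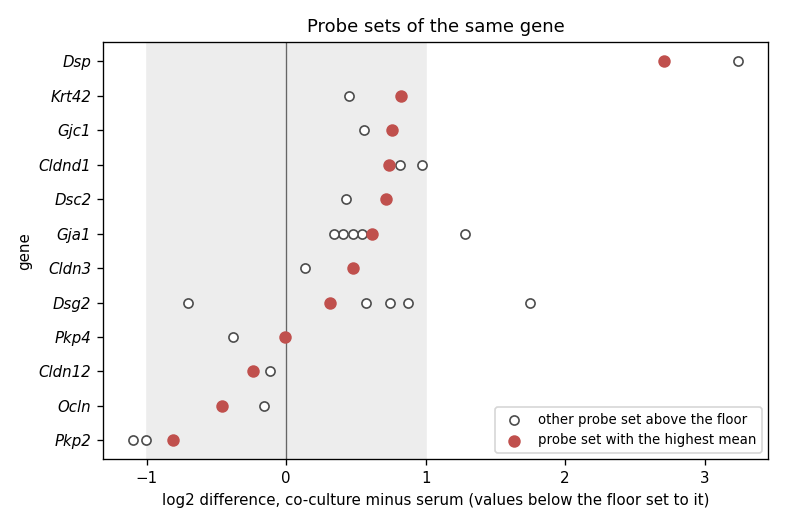
Log2 differences of every probe set above the floor for the 12 genes with at least 2 of them, the chosen probe set filled and others open, with the range within 2-fold shaded. Both Dsp points lie beyond 2.5, the 6 Gja1 points lie from 0.34 to 1.28, and the 6 Dsg2 points spread from -0.70 to 1.75.

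Genes that work beside these junctions differed in both directions, and their counts, of a few genes each, can be read beside the 4.6% higher and 10.1% lower of all measured genes. Of 12 adherens junction genes 8 were measured, with 1 higher and 1 lower and a median of -0.16. The lower call was lost with the floor at 200 or at percentile 75 and with the mean over probe sets. Ctnnd1, the p120 catenin that stabilises cadherins, was 2.30-fold higher (752 to 1728; a log2 difference of 1.47 for its second probe set). Nectin2, an adhesion receptor, was 2.64-fold lower (140 to 53; 0.16 for its second probe set). Cdh1, the cadherin of epithelia, was below the floor on both arrays at 22.4 and 21.3, while Ctnnb1, the beta-catenin that binds its tail, had 10019 and 10024, though other probe sets gave log2 differences up to 2.15.

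Of 19 tight junction partners and polarity genes 16 were measured, with 2 higher and 0 lower. The count of higher genes was 0 with the floor at 200 or at percentile 75 and with the mean over probe sets, 1 when scaled to spikes, and 5 with the floor at percentile 25 or the pseudocount, with 1 lower in each of these last 3 settings. Cxadr, the coxsackievirus and adenovirus receptor of tight junctions, was 2.75-fold higher (102 to 281), and its other probe sets above the floor gave log2 differences down to 0.18. Cgn, the cingulin that links tight junctions to actin, was 2.28-fold higher (119 to 272). Both measured genes among 6 other connexins and pannexins were lower: the channel Panx1 by 2.44-fold (1015 to 416) and Gjd2, a connexin of neurons, by at least 2.02-fold (89.4 to 20.2). Gjd2 sits at the limit, and 1 lower gene was left when the median difference was subtracted, with the higher floors and with the mean over probe sets.

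Of 19 filament linkers and other intermediate filament genes 13 were measured, with 0 higher and 2 lower. Both lower calls were lost with the higher floors and with the mean over probe sets, and 1 gene was higher with the floor at percentile 25 or without shared-sequence probe sets. Synm, a filament protein of muscle, was at least 3.95-fold lower (175 to 32.6), and Ina, a neuronal filament, at least 2.90-fold lower (128 to 43.2). Vim, the filament of mesenchymal and many cultured cells, was bright and nearly equal at 7588 and 7414, and Plec, a linker of filaments to junctions, had 1536 and 2145.

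Of 22 factors of the epithelial programme 17 were measured, with 1 higher and 3 lower. This balance depends on the setting: 2 were higher and 1 lower without shared-sequence probe sets, 1 and 1 with the mean over probe sets, 0 and 1 with the higher floors, and 3 and 4 with the floor at percentile 25. Grhl1, a grainyhead factor of the epidermis, was 2.85-fold higher (116 to 332). Snai2, a repressor of epithelial genes, was 2.35-fold lower (1528 to 651), Tfap2c 2.21-fold (222 to 100.5) and Elf3 2.04-fold (173 to 85). Other probe sets gave -0.57 for Snai2 and -0.49 for Tfap2c. The epithelial surface molecule Epcam was 2.14-fold higher (59.6 to 128), with a log2 difference of 0.10 for its second probe set.

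The start sites of keratin and junction genes held these letters in different shares, a property that the name rule did not use. RefSeq windows were found for 70 of the 102 genes, 86 windows in all, some of which overlap within a gene. The TATA box was found in 18 of 33 keratin windows (54.5%), in 6 of 53 junction windows (11.3%) and in 13.6% of all windows. The GC box showed the opposite order, with 2 keratin windows (6.06%), 26 junction windows (49.1%) and 35.7% of all windows. The E-box was found in 36.4% of keratin and 30.2% of junction windows. Members of a keratin cluster arose by duplication, so their windows are not independent.

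CpG content was higher among the bright genes than among the dim ones. Windows were found for 12 of 16 genes that reached 200, 9 of 14 measured below 200, and 49 of 72 not measured. Their median CpG ratios were 0.60, 0.29 and 0.31. These medians pool keratins with junction genes, so brightness and family are not separated. Over all genes of the array the medians were 0.80, 0.59 and 0.34 in the same order, each above that of the keratin and junction genes; no test was made. The bright keratins Krt10 (0.15) and Krt42 (0.092) and the connexin Gjb5 (0.14) had low ratios, Krt75 (0.37), Cldnd1 (0.53) and Gja1 (0.54) lay between, and Pkp4 (0.87) had a high one.

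**Figure D4:**
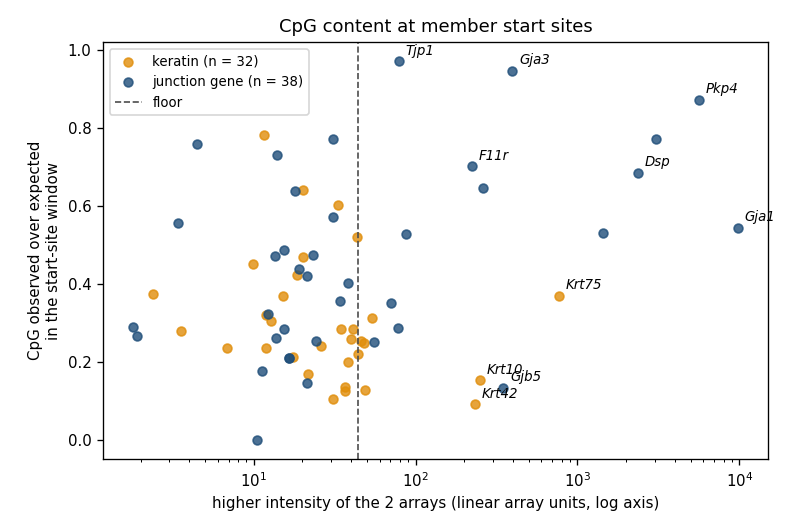
CpG observed over expected in the start-site windows (mean over a gene's windows) against the higher intensity of the 2 arrays, on a log axis, for 32 keratins and 38 junction genes, with the floor dashed. Bright genes spread over most of the range: Gja3 (0.95), Pkp4 (0.87) and Dsp (0.69) sit high, Gja1 (0.54), Cldnd1 (0.53) and Krt75 (0.37) lie between, and Krt10 (0.15), Gjb5 (0.14) and Krt42 (0.092) sit low.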

How the data were processed

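Total RNA was labelled with biotin and hybridised to 1-colour arrays, 1 per culture, per the labels' protocols. The deposited table holds the authors' linear intensity per probe set. The array software and any correction or scaling were not given in the sources used here. Of 45101 probe sets, 34958 had 1 symbol in the platform annotation, and all 102 symbols described here matched the RefSeq annotation of GRCm38.p6 through the gene number. Genes with several symbols on a probe set were not named from it. Values were floored at 44.3 and compared as log2 differences with Python 3.11.15, pandas 2.3.3 and NumPy 2.4.6. The steps were tested on simulated data. The members and lists were chosen with earlier results of these data known.

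Named were members past 2-fold, members at 200 or more on an array, and a fixed set of family representatives, such as Krt8, Dsp, Ocln and Cldn5. Related genes were named for up to 3 per list past 2-fold, with Cdh1, Ctnnb1, Vim and Epcam. Other genes in the text, such as Krt1, Plec, Cldn3 and Krt28, were chosen after their values were seen. There were 10 alternative settings: floors at percentiles 25 and 75 and at 200, a pseudocount of 16, subtraction of the median difference, quantile normalization, scaling to 18 spike probe sets, 2 other choices of probe set value, and leaving out probe sets with shared sequence.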

Additional observations from a re-analysis of the deposited data

How the results depend on the processing

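Of the 10 alternatives, 6 kept the count of higher genes at 2 to 4, beside 3 as reported, and the other 4 changed the floor or replaced it with a pseudocount. With the floor at percentile 25 (an intensity of 12.8), 82 keratin and junction genes were measured, with 17 higher (20.7%) and 2 lower (2.44%). At that floor 12.7% of all measured genes were higher and 10.0% lower. A pseudocount of 16 gave 7 higher (23.3%) and 2 lower (6.67%) of 30, beside 7.63% and 10.6% of all measured genes. The added ones include Jup, Pkp1, Dsc2 and Krt88 on the higher side and Krt5 on the lower. With the floor at percentile 75 (389), 1 gene was higher, Dsp, and 0 lower, and with the floor at 200 Dsp was again the 1 higher gene. These floors left 10 and 16 keratin and junction genes measured, with 1.98% and 2.61% of all measured genes higher. Scaling to spikes gave 4 lower genes, with Perp, Pkp2 and Gjb5 joining Krt75. They were 13.8% of the 29 measured, beside 14.3% of all measured genes. Leaving out shared-sequence probe sets gave 2 lower genes, with Pkp2, which is 7.69% of the 26 measured beside 9.83% of all measured genes. Dsp was at least 2-fold higher in all 10 alternatives (log2 difference 1.98 to 2.77). Gja3 passed in 8 of 10 and had 0.99 and 0.025 at floors of 200 and percentile 75. F11r passed in 7 of the 9 in which it was measured, with 0.16 at a floor of 200 and 0.93 as a mean over probe sets. Krt75 passed in 9 of 10, with -0.98 at a floor of percentile 75. A higher floor lowers these bounds by its construction. A mean over probe sets likewise shrinks where another probe set lies below the floor on both arrays, as for Dsp, Gja3 and F11r. The median log2 difference of the measured keratin and junction genes, 0.19 as computed with the floor, ran from -0.04 (quantile normalization) to 0.33 (floor at percentile 25), so its sign depends on the setting. Scaling to spikes moved the median of all genes from -0.06 to -0.27. No paired analysis was possible because each culture has 1 array.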
